A study of Rattus norvegicus with 9 samples.

Results

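The genes described here are the splicing factors whose symbols start with Hnrnp or Srsf, taken from the deposited table by the start of the gene name alone. They were 31 of the 12854 genes in the table, 20 Hnrnp genes and 11 Srsf genes, all annotated as protein-coding. Whole rat blood was profiled by RNA sequencing in 9 libraries of 3 each, from blood left untreated (Control), blood incubated for 15 min with DNAgel, a hydrogel of salmon sperm DNA crosslinked with poly(ethylene glycol) diacrylate, and blood incubated for 15 min with GS, a commercial gelatin sponge used to stop bleeding. The study describes its rats as male 6-week-old Sprague-Dawley animals. How long the Control blood was kept is not stated, so time and material cannot be told apart in comparisons with it. Nor is it stated in the sources used here whether the libraries of a group come from different animals, and the p-values therefore cover only the spread between these samples, part of which may be technical. Poly(A) RNA was used, and every value is an average over red cells, platelets and white cells.

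SR proteins, encoded by the Srsf genes, carry RNA recognition motifs and a domain rich in arginine and serine, and they mostly bind exonic enhancers and recruit the spliceosome. The hnRNP proteins, encoded by the Hnrnp genes, coat nascent transcripts and often act at silencer elements, and several also govern the export, stability or translation of mature mRNA. Reticulocytes and platelets have no nucleus and carry mRNA made earlier, and human platelets are known to retain spliceosome components, while white cells transcribe and splice. In the annotation given with the table, 15 of the 31 genes belonged to the KEGG spliceosome pathway, 26 carried a term for RNA binding and 21 a term for splicing.

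Promoter sequences from RefSeq (build GRCr8) matched 30 of the 31 genes with 34 windows, each running from 250 bases before the annotated start to 50 bases after it. The GC box (GGGCGG or CCGCCC) lay in 26 of these 34 windows (76.5%), against 65.3% of 2486 windows of tested genes and 33.1% of all 33469 windows. The CCAAT box (CCAAT or ATTGG) lay in 24 windows (70.6%), against 41.0% of windows of tested genes and 37.5% of all windows. The TATA box (TATAAA or TTTATA) lay in 20.6% of the members' windows, 7.84% of windows of tested genes and 14.2% of all windows, and the ETS core (CCGGAAG or CTTCCGG) in 23.5%, 21.6% and 8.75%. Both strands were searched, and these shares are descriptions of letters, not of bound sites. The 100 bases before the start are printed for 2 genes with lower levels in the GS group, Srsf11 and Hnrnpab, and 2 with higher levels there, Hnrnph3 and Hnrnpr, 5′ to 3′ on the strand of the gene with those motifs in capitals.
Srsf11 (GRCr8, chr2:249760259-249760358, minus strand): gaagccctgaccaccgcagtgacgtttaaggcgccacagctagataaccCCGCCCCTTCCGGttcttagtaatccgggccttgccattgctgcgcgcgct
Hnrnpab (GRCr8, chr10:36363899-36363998, minus strand): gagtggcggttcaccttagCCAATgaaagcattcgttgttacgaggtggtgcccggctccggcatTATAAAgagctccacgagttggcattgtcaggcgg
Hnrnph3 (GRCr8, chr20:25619440-25619539, plus strand): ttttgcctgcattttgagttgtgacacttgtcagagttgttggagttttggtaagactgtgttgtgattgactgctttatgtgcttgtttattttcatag
Hnrnpr (GRCr8, chr5:153826419-153826518, plus strand): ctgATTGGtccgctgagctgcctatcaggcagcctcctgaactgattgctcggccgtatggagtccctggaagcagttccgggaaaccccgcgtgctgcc
In Srsf11 a GC box and an ETS core stood side by side 51 and 45 bases before the start. In Hnrnpab a CCAAT box stood 81 bases and a TATA box 35 bases before the start, and in Hnrnpr a CCAAT box stood 97 bases before it. The Hnrnph3 stretch held no match, and its whole window had 1 CpG dinucleotide and 38.3% GC, against a median of 29.5 CpG and 65.3% GC over the members' windows. The window of Hnrnpk (2 CpG, 35.7% GC) and a window of Srsf10 (0 CpG, 36.0% GC) were similarly poor. Windows follow the annotated start, and whether transcription begins there was not tested, so these stretches may not be promoters.

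Total counts per library ran from 51838917 to 68076324. The 9 hemoglobin genes took 95.0% to 96.4% of them, which left 2344910 to 3216776 counts for all other genes, and the 31 members together held 2209 to 3391 counts per library. In all libraries the commonest non-zero count was 4. A total of 12 counts in a group (3 times that unit) was therefore used as the highest level that a listed 0 allows, for counting error only. Of the 31 genes, 26 had an FPKM over 0.1 in at least 3 libraries and were tested. Levels compared between genes are given as FPKM, fragments scaled for length and depth, and levels compared between groups as CPM, counts relative to the library total after scaling by the trimmed mean of M-values (TMM).

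The members were expressed at low levels, and the order among them was led by Srsf5, a classic SR protein. Srsf5 had an FPKM of 2.08, 2.37 and 1.72 in the Control, 1.67, 2.83 and 1.88 with DNAgel and 0.666, 1.60 and 1.54 with GS. Hnrnpa1, which binds splicing silencers and shuttles out of the nucleus with mRNA, had 1.47, 1.37 and 1.81 in the Control, 0.810, 1.20 and 1.15 with DNAgel and 0.953, 1.34 and 1.04 with GS. GS replicate 1 stood far below the others for Srsf5. By FPKM, all 3 DNAgel libraries and all 3 GS libraries lay below all 3 Control libraries for Hnrnpa1. By CPM, GS and the Control overlapped for Hnrnpa1, with GS replicate 2 at 2.87 and Control replicate 2 at 2.78. Hnrnpl, which binds CA-rich RNA, had 1.07, 1.57 and 1.40 in the Control, 1.07, 1.44 and 0.884 with DNAgel and 0.629, 1.08 and 0.980 with GS. Hnrnph1, which binds runs of G, had 1.03, 1.002 and 1.14 in the Control, 0.764, 1.71 and 0.830 with DNAgel and 0.993, 1.32 and 0.886 with GS. Hnrnpa2b1, a close relative of Hnrnpa1, had 0.856, 0.984 and 1.04 in the Control, 0.649, 1.46 and 1.15 with DNAgel and 1.20, 0.988 and 1.20 with GS. DNAgel replicate 2 held the highest FPKM of Srsf5, Hnrnph1 and Hnrnpa2b1. These 5 were the only members with a mean FPKM of at least 1, and the means of neighbours in this order, from 1.82 for Srsf5 to 1.06 for Hnrnpa2b1, differed by less than the range over libraries of either neighbour.

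Below them came 21 tested genes with mean FPKM from 0.843 for Hnrnpab to 0.105 for Hnrnph2. This order depends on the length that the authors' tools used. The length implied by count and FPKM ran from 1.44 kb for Srsf2 to 13.5 kb for Hnrnpf among the tested genes, and Hnrnpf was rank 16 by FPKM but rank 2 by CPM, with a mean of 3.55, behind Hnrnpa2b1 at 4.83. Hnrnpk, a poly(C)-binding protein with KH domains, was rank 8 by FPKM and rank 3 by CPM. The median coefficient of variation within a group was 20.7% in the Control, 22.9% with DNAgel and 21.9% with GS over the 26 tested members, beside 25.1%, 28.0% and 29.0% over all tested genes.

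**Figure D1:**
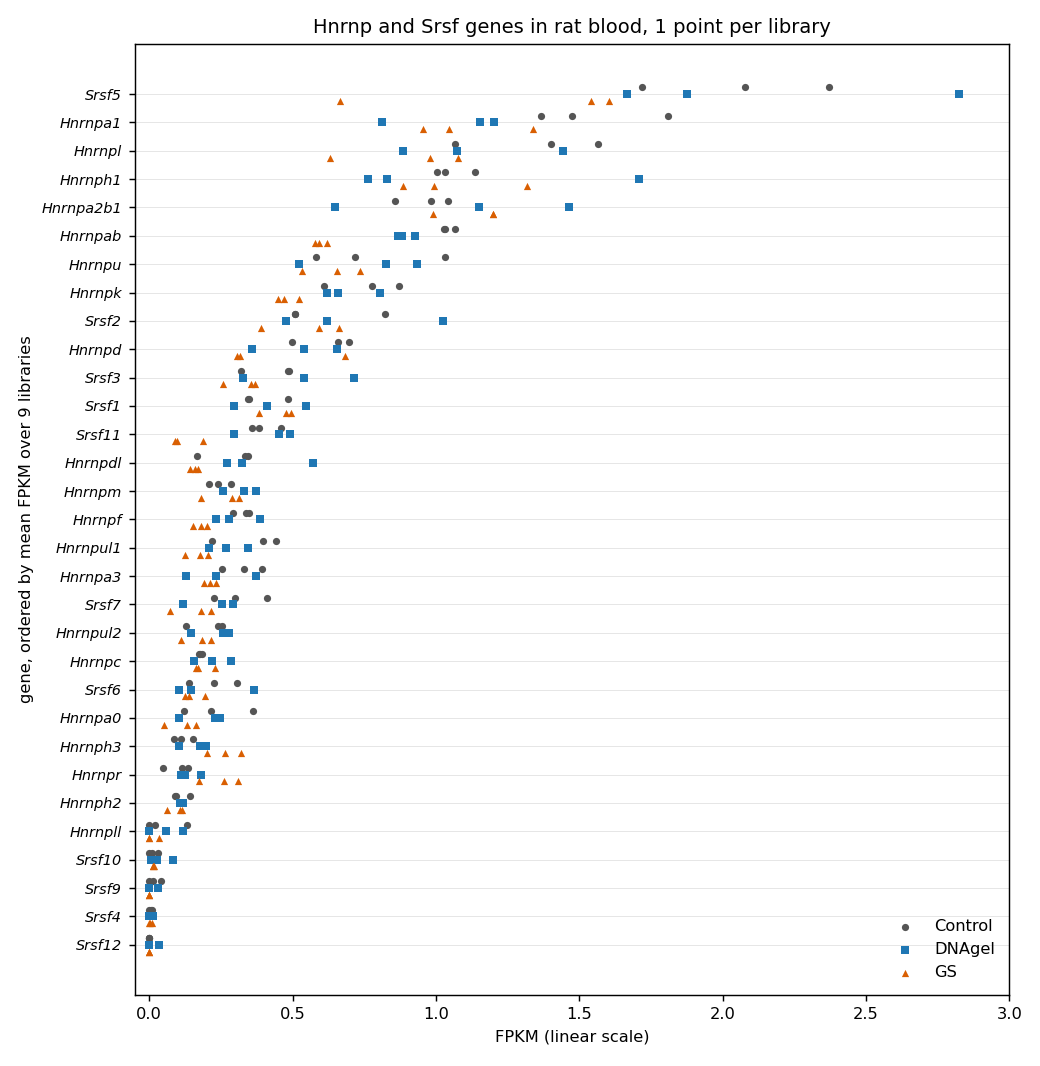
FPKM (linear axis) of all 31 Hnrnp and Srsf genes, ordered by their mean over 9 libraries, with 1 point per library and the group shown by colour and shape. Srsf5 leads with a mean of 1.82, 5 genes have a mean of at least 1, and the lowest 5 genes have means of 0.0403 or less.

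The remaining 5 members were too low to test. Hnrnpll, known for silencing exons of Ptprc in T cells, had 24 counts over the Control libraries, 29 over the DNAgel libraries and 6 over the GS libraries. Srsf10, a splicing repressor when dephosphorylated, had 15, 33 and 16 counts over the same groups, and Srsf4, a large SR protein, had 23, 21 and 14. Srsf9, a small SR protein, had 14, 0 and 5 counts in the Control libraries, 0, 0 and 11 in the DNAgel libraries and 0 in all GS libraries. Srsf12 had 4 counts in DNAgel replicate 3 and 0 elsewhere. Hnrnpll, Srsf9 and Srsf12 were under the limit of 12 counts in at least 1 group, and differences in them were not detectable at this depth.

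The comparison of DNAgel with GS asks how blood responds to the DNA hydrogel beside a sponge in clinical use. None of the 26 tested members passed an adjusted p of 0.05 in edgeR's quasi-likelihood test, against 29 of 3561 genes tested (0.814%). DESeq2 called 63 genes over all, 1 of them a member, Srsf11. At an unadjusted p under 0.05 there were 5 members higher and 1 lower with DNAgel, 23.1% of the members against 9.44% of all genes tested. The libraries of the 2 groups did not overlap for 7 members higher with DNAgel (26.9%, against 8.71% of all genes) and for 2 lower (7.69%, against 5.95%). A log2 fold change above 0 was seen in 20 of 26 members, against 1888 of 3561 genes tested. The median log2 fold change of the members was 0.23, beside 0.03 for all genes tested. That median was 0.10 without GS replicate 3 and 0.15 without DNAgel replicate 2.

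Srsf11, an SR-family splicing regulator (ENSRNOG00000029592, chromosome 2, 247074631 to 247101425, minus strand, in the coordinates of the table, for which no build is assigned), showed the largest difference. Its level was 0.908, 1.24 and 1.31 CPM with DNAgel and 0.311, 0.265 and 0.569 CPM with GS, from 57, 73 and 87 counts against 18, 17 and 32 counts. Every DNAgel library lay above every GS library, and the mean was 3.02-fold higher with DNAgel, at a log2 fold change of 1.59 (SE 0.36, edgeR adjusted p = 0.0691). Over the alternatives its adjusted p ran from 0.0170 to 0.264, and it passed 0.05 with DESeq2 (0.0170), with no filter on low values (0.0286) and without GS replicate 3 (0.0372, log2 fold change 1.99). In whole blood, fewer cells of a type and less of an RNA per cell cannot be told apart, here and in all that follows.

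Hnrnpf and Hnrnpdl followed. Hnrnpf (ENSRNOG00000014562, chromosome 4, 151083062 to 151109038, plus strand) binds runs of G, as the Hnrnph proteins do, and had 4.05, 4.62 and 3.18 CPM with DNAgel and 2.76, 2.73 and 2.17 CPM with GS. Its log2 fold change was 0.63 (SE 0.19, edgeR adjusted p = 0.246). Hnrnpdl, a relative of the AU-rich element binding protein Hnrnpd, had 0.781, 1.35 and 0.888 CPM with DNAgel and 0.449, 0.468 and 0.462 CPM with GS, a log2 fold change of 1.13 (SE 0.36, edgeR adjusted p = 0.262). The GS libraries nearly coincided for Hnrnpdl, with an SD of 0.00976 CPM around a mean of 0.459, while the DNAgel libraries spread over an SD of 0.305. Srsf5 had 2.76, 3.79 and 2.91 CPM with DNAgel and 1.17, 2.46 and 2.45 CPM with GS, a log2 fold change of 0.63 (SE 0.28, edgeR adjusted p = 0.508). Its difference shrank to 0.35 without GS replicate 1, the lowest library.

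The 3 other members with higher values in every DNAgel library were chosen for mention after their values were seen. Hnrnpab, an RNA-binding relative of Hnrnpd, had 2.13, 1.88 and 2.03 CPM with DNAgel and 1.59, 1.36 and 1.39 CPM with GS. Hnrnpk had 3.36, 3.37 and 2.98 CPM with DNAgel and 2.80, 2.14 and 2.35 CPM with GS. Hnrnpul1, which in human cells takes part in the response to DNA damage, had 0.908, 1.22 and 1.08 CPM with DNAgel and 0.794, 0.842 and 0.533 CPM with GS. Their log2 fold changes were 0.48 for Hnrnpab, 0.42 for Hnrnpk and 0.56 for Hnrnpul1, and their edgeR adjusted p-values ran from 0.497 to 0.689.

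The opposite order was seen in Hnrnph3 and Hnrnpr. Hnrnph3 (ENSRNOG00000048193, chromosome 20, 25614733 to 25625750, plus strand), the smallest protein of the H family, had 0.605, 0.846 and 1.07 CPM with DNAgel and 1.93, 1.09 and 1.49 CPM with GS. The highest DNAgel library lay just under the lowest GS library, and the log2 fold change was -0.84 (SE 0.33, edgeR adjusted p = 0.421). Hnrnpr, a relative of Syncrip that was named after its values were seen, had 0.398, 0.457 and 0.331 CPM with DNAgel and 0.570, 0.749 and 0.924 CPM with GS, a log2 fold change of -0.92 (SE 0.46, edgeR adjusted p = 0.602). For any single member, an exact two-sided permutation test of 3 libraries against 3 cannot give a p below 0.1, which is the value for each of these 9 members.

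The other abundant members did not separate the materials. The log2 fold change of DNAgel against GS was -0.18 (95% interval -0.62 to 0.25) for Hnrnpa1, 0.23 (-0.27 to 0.72) for Hnrnpl, -0.19 (-0.66 to 0.28) for Hnrnpa2b1 and -0.09 (-0.63 to 0.45) for Hnrnph1. These intervals leave room for differences in either direction. The direction for Hnrnph1 turned under 5 alternatives, including library totals alone (0.054), and that for Hnrnpa2b1 turned without DNAgel replicate 1 (0.035). The 13 tested members not yet named in this comparison had log2 fold changes between -0.22 for Srsf1 and 0.63 for Hnrnpa0, and the libraries of the groups overlapped for all 13.

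**Figure D2:**
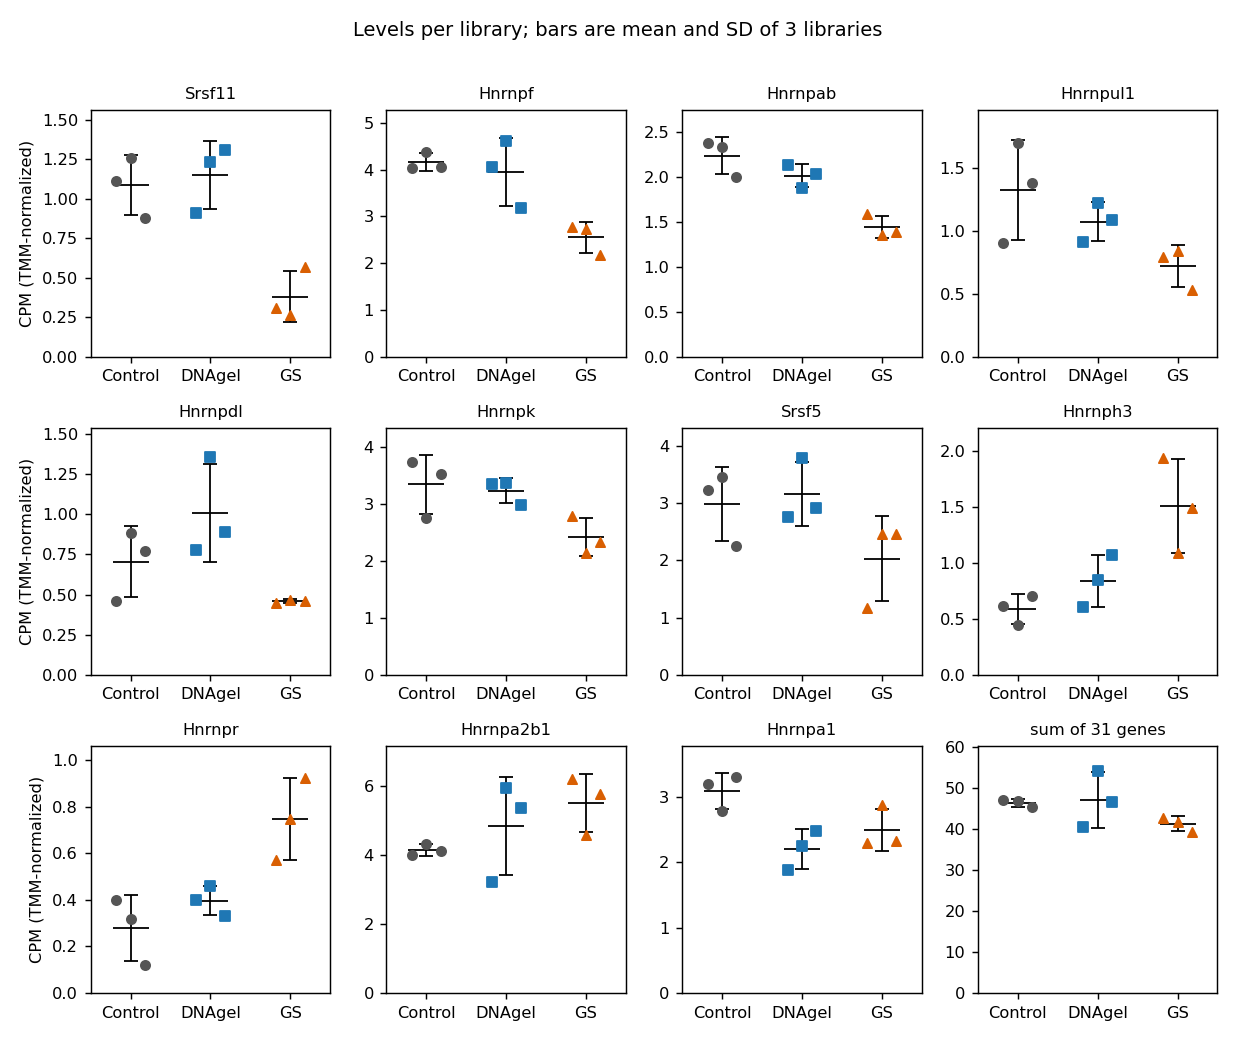
TMM-normalized CPM (linear axes from 0) of the 11 members whose libraries did not overlap in at least 1 comparison, with the summed level of all 31 members in the last panel, 1 point per library and bars for the mean and SD of 3 libraries. Srsf11 in the GS group lies at 0.265 to 0.569 CPM, below all other libraries, and Hnrnph3 and Hnrnpr are highest in the GS group.

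Blood with GS was also set against untreated blood, with the same GS libraries as before, and time and material cannot be told apart here. Again no member passed in edgeR, against 23 of 3561 genes (0.646%). DESeq2 called 52 genes over all, among them Srsf11 lower and Hnrnph3 higher. At an unadjusted p under 0.05 there were 2 members higher and 5 lower with GS, 26.9% of the members against 8.85% of all genes tested. The libraries did not overlap for 3 members higher with GS (11.5%, against 6.49% of all genes) and 4 lower (15.4%, against 10.7%). A log2 fold change below 0 was seen in 19 of 26 members (73.1%), against 53.7% of all genes tested. The median log2 fold change of the members was -0.31, beside -0.04 for all genes tested. Both medians moved with library totals alone, to -0.51 and -0.23, and the gap between them stayed at -0.27.

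Srsf11 had 1.11, 1.26 and 0.881 CPM in the Control, above all GS libraries given earlier, for a log2 fold change of -1.51 (SE 0.36, edgeR adjusted p = 0.0947). Without GS replicate 3 the adjusted p was 0.0491, at a log2 fold change of -1.91, and with DESeq2 it was 0.0350. Hnrnph3 had 0.611, 0.449 and 0.708 CPM in the Control, below all GS libraries, for a log2 fold change of 1.35 (SE 0.34, edgeR adjusted p = 0.112). DESeq2 gave Hnrnph3 an adjusted p of 0.0383, and over all alternatives it ran from 0.0383 to 0.423. Hnrnpf had 4.03, 4.37 and 4.06 CPM in the Control, above all GS libraries, for a log2 fold change of -0.70 (SE 0.19, edgeR adjusted p = 0.165).

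Hnrnpr had 0.397, 0.319 and 0.120 CPM in the Control, below all GS libraries, a log2 fold change of 1.42 (SE 0.47, edgeR adjusted p = 0.330). Hnrnpab had 2.38, 2.33 and 2.00 CPM in the Control, above all GS libraries, with a log2 fold change of -0.63 (SE 0.21, edgeR adjusted p = 0.333). Hnrnpul1 had 0.901, 1.69 and 1.38 CPM in the Control, with Control replicate 1 close to the GS libraries, and a log2 fold change of -0.87 (SE 0.32, edgeR adjusted p = 0.415). Among the abundant members, Hnrnpa2b1 had 4.001, 4.32 and 4.10 CPM in the Control and 6.20, 4.57 and 5.76 CPM with GS, which did not overlap, at a log2 fold change of 0.41 (95% interval -0.06 to 0.88). Hnrnpk and Srsf5, by contrast, overlapped between these groups, with log2 fold changes of -0.47 and -0.55 and edgeR adjusted p-values of 0.496 and 0.613. The intervals for Hnrnpa1 (-0.74 to 0.13), Hnrnpl (-0.91 to 0.08) and Hnrnph1 (-0.36 to 0.71) all included 0.

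Blood with DNAgel against untreated blood showed little. No member and no gene at all passed in edgeR (0.0% of 3561), and DESeq2 called 5 genes but no member. At an unadjusted p under 0.05 there was 1 member, Hnrnpa1, 3.85% of the members against 3.79% of all genes tested. No member was higher with DNAgel without overlap (4.94% of all genes were) and 1 was lower, again Hnrnpa1 (3.85%, against 5.22% of all genes). Hnrnpa1 had 1.88, 2.25 and 2.48 CPM with DNAgel and 3.19, 2.78 and 3.30 CPM in the Control, with a log2 fold change of -0.49 (SE 0.20, edgeR adjusted p = 0.994). Hnrnpm, which binds GU-rich RNA, followed with a log2 fold change of 0.43 (SE 0.26), and Hnrnpc, which binds runs of U, with 0.36 (SE 0.24), both with an edgeR adjusted p of 0.994. The shares of members past the unadjusted p and without overlap were near or below the shares of all genes in this comparison. The median of the members was 0.08, beside -0.01 for all genes, and it changed sign without DNAgel replicate 2 (-0.06), without Control replicate 3 (-0.0022), and with limma on log2(FPKM + 0.1) (-0.0022) and on log2(FPKM + 0.01) (-0.0041).

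Srsf11 had a log2 fold change of 0.09 (95% interval -0.64 to 0.81) between DNAgel and the Control. The same values were -0.07 (-0.49 to 0.34) for Hnrnpf, -0.15 (-0.60 to 0.30) for Hnrnpab and 0.51 (-0.22 to 1.24) for Hnrnph3. Of the abundant members, Srsf5 had 0.08 (-0.52 to 0.68), Hnrnpl -0.19 (-0.68 to 0.30), Hnrnph1 0.08 (-0.46 to 0.62) and Hnrnpa2b1 0.22 (-0.24 to 0.69). All of these intervals included 0, and none is narrow enough to show equal levels. The direction for Srsf11 turned without Control replicate 3 (-0.045) and without DNAgel replicate 3 (-0.018), and that for Hnrnpf without DNAgel replicate 3 (0.060). The comparisons share the Control, DNAgel or GS libraries between them, so their values are set side by side and not counted as separate evidence.

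**Figure D3:**
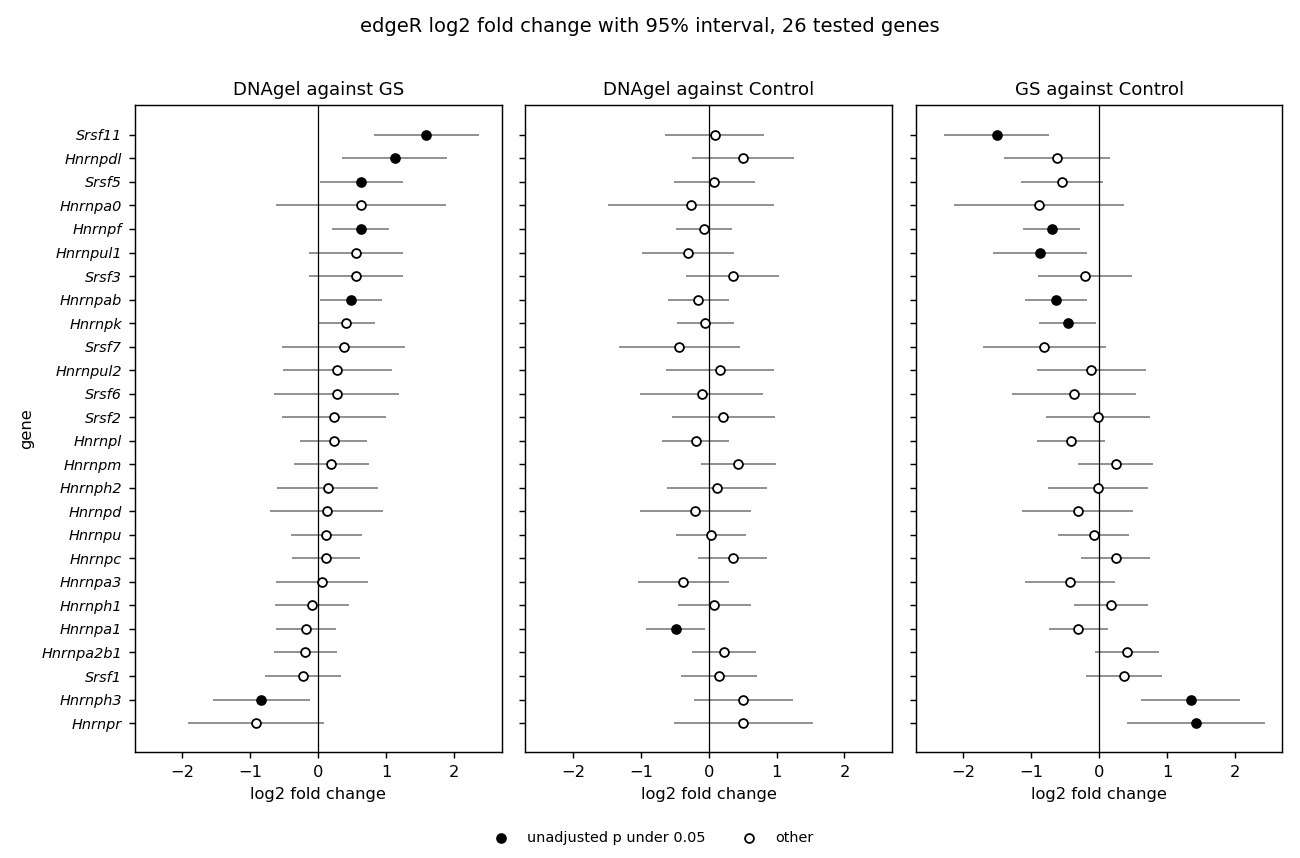
edgeR log2 fold change of the 26 tested members in each comparison, with lines for the 95% interval, filled points for an unadjusted p under 0.05 and genes ordered by DNAgel against GS. Filled points number 6 in DNAgel against GS, 1 in DNAgel against Control and 7 in GS against Control, and no member passed after adjustment over 3561 genes.

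By group mean, 18 of the 26 tested members were lowest in the GS group (40.3% of all genes tested were), 7 in the Control (29.4%) and 1 in the DNAgel group (30.3%). The summed level of all 31 genes was 47.0, 46.8 and 45.3 CPM in the Control, 40.5, 54.1 and 46.5 CPM with DNAgel and 42.8, 41.7 and 39.2 CPM with GS. The Control libraries agreed closely and lay above all GS libraries, while the DNAgel libraries spread across both. DNAgel replicate 2, the library with the fewest total counts (51838917), had the highest level of 8 of the 26 members. How often this library was highest over all genes tested is not given here. Without this library the number of members above 0 in DNAgel against GS went from 20 to 16, and the number at an unadjusted p under 0.05 from 6 to 5. The summed level of the Srsf genes alone was 8.69 to 11.4 CPM in the Control, 8.76 to 12.8 CPM with DNAgel and 7.72 to 8.61 CPM with GS, and that of the Hnrnp genes was 35.4 to 36.6, 31.7 to 41.3 and 30.96 to 35.1 CPM. By family, the median log2 fold change of GS against Control was -0.31 over 19 Hnrnp genes and -0.38 over 7 Srsf genes. Below 0 were 13 (68.4%) and 6 (85.7%) of them, against 53.7% of all genes tested.

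Within sets of related genes the shares of some members, which do not depend on the scaling of the libraries, also differed. They rest on the same counts as the levels above. Of the counts for Hnrnph1, Hnrnph2, Hnrnph3 and Hnrnpf together, Hnrnpf took 50.9%, 55.9% and 50.6% in the Control, 54.0%, 46.6% and 44.5% with DNAgel and 33.1%, 34.5% and 33.8% with GS. Hnrnph3 took 7.71%, 5.74% and 8.82% in the Control, 8.09%, 8.53% and 15.0% with DNAgel and 23.2%, 13.8% and 23.3% with GS. The GS libraries lay below all others for the share of Hnrnpf, and above all Control libraries for the share of Hnrnph3, where GS replicate 2 lay just under DNAgel replicate 3. Among the counts of the 11 Srsf genes, Srsf11 took 10.1% to 11.1% in the Control, 9.64% to 12.02% with DNAgel and 3.08% to 6.87% with GS. Srsf1, the prototype SR protein, took 18.6% to 22.2%, 15.5% to 27.6% and 26.4% to 39.4%, although its own level gave a log2 fold change of 0.37 (95% interval -0.19 to 0.93) in GS against Control. Among Hnrnpd, Hnrnpdl and Hnrnpab, all shares overlapped between GS and the Control. Among Hnrnpa0, Hnrnpa1, Hnrnpa2b1 and Hnrnpa3, the share of Hnrnpa2b1 was higher than in the Control with both materials. It was 41.6% to 45.3% in the Control, 46.4% to 58.5% with DNAgel and 50.8% to 60.2% with GS. A share can shift because of any gene in its set.

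**Figure D4:**
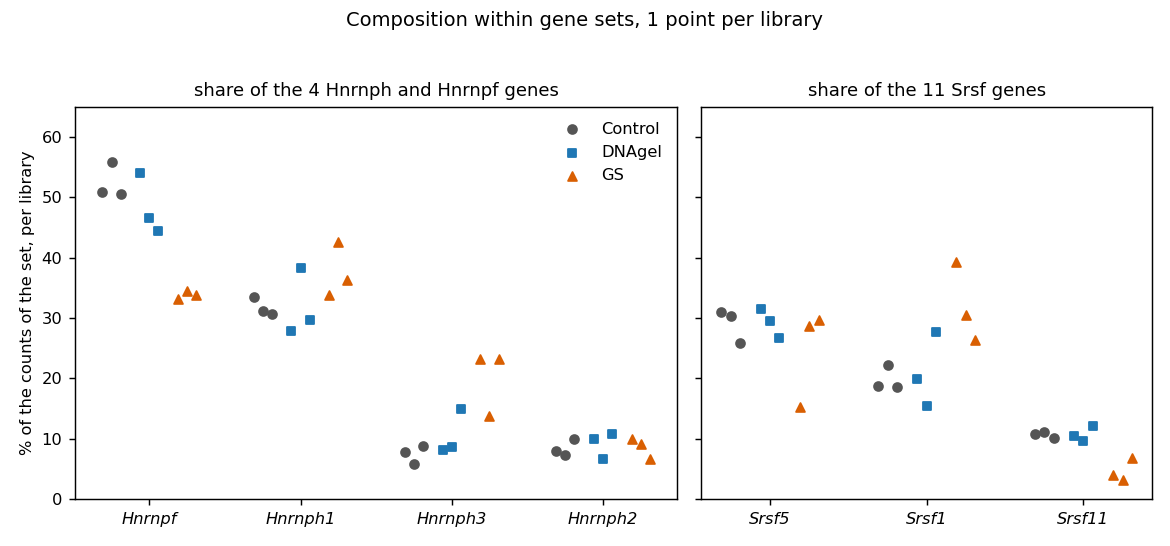
Share of counts (% of the set, linear axis from 0) of each of the 4 Hnrnph and Hnrnpf genes and of 3 of the 11 Srsf genes, 1 point per library. Hnrnpf holds 44.5% to 55.9% of its set in the Control and DNAgel libraries and 33.1% to 34.5% in the GS libraries.

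Several members have similarly described entries elsewhere in the table or overlap another gene in position, and their counts may be less certain for it. The table lists an R-like gene (ENSRNOG00000048337) with 12, 20 and 14 counts with DNAgel, 44, 31 and 35 with GS and 19, 19 and 13 in the Control, highest in the GS group as Hnrnpr was. For Hnrnpk, a K-like gene (ENSRNOG00000013579) had 83, 122 and 100 counts with DNAgel, 59, 73 and 52 with GS and 112, 91 and 117 in the Control, lowest in the GS group as Hnrnpk was. A second K-like gene (ENSRNOG00000063529) had 13, 13 and 7 counts with DNAgel, 15, 7 and 6 with GS and 19, 24 and 15 in the Control, where the lowest Control library equalled the highest GS library. Sequence identity between these entries was not measured, and how reads that match more than 1 of them were counted is not given in the sources used here. An A3-like gene (ENSRNOG00000027006) was at 0 in all Control libraries, at 146, 183 and 0 counts with DNAgel and at 116, 0 and 113 with GS. A second A3-like gene (ENSRNOG00000011100) had 144 counts in DNAgel replicate 1, 101 in GS replicate 1 and 0 in every other library. Hnrnpa3 itself had 106, 137 and 159 counts in the Control, 99, 121 and 54 with DNAgel and 96, 77 and 79 with GS. With both A3-like genes added, the counts were 389, 304 and 54 with DNAgel and 313, 77 and 192 with GS. The level of Hnrnpa3 is therefore uncertain. The span of 8 members overlapped another gene, among them Hnrnph3 with Rufy2 and Hnrnpab with Phykpl on the opposite strand. The libraries mark the strand, but whether the counting used it is not given, so the reads of such pairs may not be told apart.

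Other genes of the splicing machinery were counted in the same fit, from lists of small nuclear ribonucleoprotein subunits, SR-related proteins, SR protein kinases and carriers, and other regulators. Of 103 listed symbols, 97 were found in 100 entries of the table, since some symbols occur more than once, and 57 entries of 55 symbols were tested. None of them passed in any comparison in edgeR, nor in DESeq2. Their median log2 fold change was 0.32 in DNAgel against GS, 0.06 in DNAgel against Control and -0.29 in GS against Control. In the last, 40 of 57 were below 0 (70.2%, against 53.7% of all genes tested). The largest statistics belonged to Snrnp70, a protein of the U1 particle that marks the 5′ splice site, with 0.972, 1.03 and 1.04 CPM with DNAgel, 0.397, 0.515 and 0.302 CPM with GS and 1.16, 0.739 and 0.908 CPM in the Control. No GS library of Snrnp70 reached any other library, and its log2 fold change was 1.32 (SE 0.33, edgeR adjusted p = 0.120) in DNAgel against GS and -1.20 (SE 0.33, edgeR adjusted p = 0.166) in GS against Control. The helicase Ddx5 had 8.95, 10.9 and 10.4 CPM with DNAgel, 7.82, 7.36 and 6.77 CPM with GS and 10.7, 9.31 and 9.01 CPM in the Control, with a log2 fold change of 0.46 (SE 0.14, edgeR adjusted p = 0.246) between the materials. In GS against Control the second largest statistic was that of Snrpf, an Sm protein at 0 in all Control libraries and at 0 to 0.207 CPM with GS. In DNAgel against Control the leading genes were Mbnl1, the muscleblind splicing regulator, with a log2 fold change of -0.40 (SE 0.15, edgeR adjusted p = 0.994), and Snrpf. With DNAgel, Snrpf was at 0.0478 to 0.166 CPM, again near the floor, and its log2 fold change was 5.53 (SE 2.12, edgeR adjusted p = 0.994).

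Summed levels of the markers of some blood cells, and of immediate-early genes, differed in the GS group too. The summed level of 9 of 10 monocyte genes found in the table was 12.3 to 16.3 CPM with GS, 18.8 to 25.6 CPM in the Control and 19.95 to 25.5 CPM with DNAgel, and Cd14 and Itgam were at 0 in all GS and all Control libraries. Within that list Apoe and Csf1r were lower in every GS library than in every other library, while the ranges of Lyz2 counts overlapped. Cd68, by contrast, had counts above 0 only in the GS group, with 0 listed in all Control and all DNAgel libraries. A listed 0 allows up to 12 counts in a group, so the zeros in this paragraph do not show absence. Immediate-early genes (16 of 19 found) summed to 4.13 to 8.06 CPM with GS, 18.2 to 20.7 CPM in the Control and 18.7 to 23.6 CPM with DNAgel, with Atf3 and Myc at 0 in all GS libraries, Nr4a1 in all DNAgel libraries and Egr2 in all libraries of both materials. T cell genes (8 of 11 found) summed to 1.297 to 1.903 CPM with GS, just under the Control at 1.99 to 2.26 CPM and overlapping the DNAgel libraries at 1.34 to 2.12 CPM. Erythroid genes (16 of 18 found) were just above the Control with GS and overlapped the DNAgel libraries, and those of neutrophils (12 of 14 found) overlapped between GS and the Control but lay higher with DNAgel, at 11.4 to 12.4 CPM, than with GS, at 8.88 to 11.3 CPM. The summed levels of platelet, B cell and NK cell genes overlapped between GS and both other groups. The part of these in the levels of Srsf11, Hnrnpf, Hnrnph3 and the other members was not tested.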

How the data were processed

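RNA of rat whole blood was measured in 9 libraries, 3 each of Control, DNAgel and GS. The authors trimmed, aligned, collapsed molecular identifiers and quantified with tools that the submitters' notes name as HISAT2 2.0.4, StringTie 1.3.4d, cutadapt 1.9 and UMI-tools, without settings or order. DESeq2 and edgeR are named there without a role. The deposited estimated counts are whole numbers that the authors did not scale between libraries. The deposited FPKM values were scaled by the authors for length and library total. The notes name a mouse build while the table holds rat genes, so its coordinates are given without a build.

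Groups came from the sample titles. The 12854 genes were filtered to the 3561 with FPKM over 0.1 in at least 3 libraries and tested with edgeR 4.0.16 (TMM scaling, robust quasi-likelihood fit of all 9 libraries, no block) in R 4.3.3, with Benjamini-Hochberg adjustment over all 3561 genes and 0.05 as the threshold. The test was tried on simulated data with known changes. Standard errors were obtained from the fold change and the root of the F statistic. Depth was 51838917 to 68076324 counts per library. The members and gene lists were chosen with earlier results of these data known. Named were the 5 members with mean FPKM of at least 1, those past the threshold, and the 3 with the largest statistic per comparison; of the other splicing genes, the 2 with the largest statistic. Hnrnpab, Hnrnpk, Hnrnpr, Hnrnpul1 and members given for their position, similar entries, share of a set or low level were named after their values were seen. Alternatives were DESeq2 1.42.0, limma 3.58.1 on log2(FPKM + 0.1), with pseudocounts of 0.01 and 1 also, other filters and scalings, totals without the 9 hemoglobin genes, counts divided by 4, only the 2 groups compared, no robust shrinkage, a replicate block, and leaving out each library.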

Additional observations from a re-analysis of the deposited data

How the results depend on the processing

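Srsf11, Hnrnpf and Hnrnph3 kept their direction in DNAgel against GS and in GS against Control under all 22 alternatives that tested them. Members called went from 0 to 1 (Srsf11) in DNAgel against GS with DESeq2 and with no filter, and to 2 (Srsf11, Hnrnph3) in GS against Control with DESeq2. Over all genes, DESeq2 called 63 and 52 in these comparisons, and the fit with no filter called 50 in DNAgel against GS. Leaving out libraries gave 0 to 1 in both comparisons, the 1 being Srsf11 without GS replicate 3, where 20 and 21 genes were called over all. The cause was not tested. Over single libraries left out, the members' median ranged from 0.096 to 0.33 in DNAgel against GS, -0.058 to 0.18 in DNAgel against Control and -0.32 to -0.25 in GS against Control. It was -0.024 in DNAgel against GS at a mean FPKM of at least 1, which leaves 5 members, and in GS against Control -0.12 with limma on log2(FPKM + 1) and -0.51 with library totals alone, where the median of all genes was -0.23. In DNAgel against Control it was -0.0022 and -0.0041 with limma at pseudocounts of 0.1 and 0.01.

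Of 963 pairs of a named gene's log2 fold change and an alternative, 946 kept their direction, and the 17 that turned belong to 7 of 43 such values. For Hnrnph1 in DNAgel against Control the value was -0.027 and -0.037 with limma at pseudocounts of 0.1 and 0.01, and -0.26 to 0.23 over single libraries left out. For Hnrnph1 in DNAgel against GS it was 0.0020 with limma on log2(FPKM + 1), 0.054 with library totals alone and -0.45 to 0.057 over single libraries left out. For Hnrnph1 in GS against Control it was -0.0038 and -0.0054 with limma at 0.1 and 0.01, and -0.0048 with library totals alone. Over single libraries left out, Srsf5 in DNAgel against Control ran from -0.084 to 0.21, Srsf11 from -0.045 to 0.23 and Hnrnpf from -0.20 to 0.060 in the same comparison, and Hnrnpa2b1 in DNAgel against GS from -0.38 to 0.035.

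Whether same-numbered libraries are paired is not stated in the sources used here. Correlations of their deviations ran from -0.103 to 0.103, and those of differently numbered libraries from -0.0935 to 0.0991. With such similar ranges this check cannot decide the question. With a replicate block, 0 members were called in each comparison. The members' median was then 0.22 between the materials, 0.05 in DNAgel against Control and -0.32 in GS against Control, and the genes called over all went from 29 to 14, stayed at 0 and went from 23 to 9.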
